A study of Mus musculus with 6 samples.

Results

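A set of 36 interferon response genes was followed in mouse kidney RNA from animals labelled DHT or control. The members were taken from the count table by gene symbol. All 36 of them were rows of the count table, which holds 46095 rows. A filter on low counts kept 35 of the 36, within 15367 genes tested. Igtp was left out of the tests with 7 counts in all. Genes of the histocompatibility region were not among the members because that region is badly counted in this table.

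Kidney samples came from mice on a C57BL/6 background. The 3 libraries of the DHT group carry the treatment label DHT (dihydrotestosterone, a potent androgen), and the 3 libraries of the control group carry the treatment label control. The strain label names a PCOS mouse in both groups, PCOS being polycystic ovary syndrome, which androgen exposure is used to model in mice. The sources used here give no age, dose, route or length of treatment. Nothing says whether replicates were separate animals, so the p-values reflect no more than the spread among these libraries, which may be technical. Total counts were 15.05 to 18.62 in units of 1e6 in the DHT libraries and 15.99 to 19.33 in the control libraries. The members took 0.0438% to 0.081% of all counts in the DHT libraries and 0.0608% to 0.0943% in the control libraries. Levels are given as counts per 1e6 (CPM) on library sizes scaled by TMM (trimmed mean of M values). Kidney tubule RNA was present in every library. The 15 proximal tubule markers, all tested, together stood at 24200 to 43000 CPM in DHT libraries and 24400 to 28900 CPM in controls. The androgen-responsive gene Kap was among the 15 and reached 22500 CPM in DHT libraries and 7770 CPM in controls. The sums therefore do not compare tubule RNA between the groups. Fold changes were below 0 for 9 of the 15.

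DHT replicate 2 stood apart from the other DHT libraries by a measure on raw counts in which abundant genes weigh most. By chi-square per gene between pairs of libraries, it differed from DHT replicates 1 and 3 by 65.6 and 60.4 and from control replicates 1, 2 and 3 by 50.6, 55 and 64.4, while DHT replicates 1 and 3 differed from each other by 26.7. The controls were spread too. Control replicates 1 and 3 differed by 72.1, the widest gap within a group, and control replicate 2 differed from them by 39.1 and 38.5. Kap, a tubule gene long known to respond to androgen in mouse kidney, was at 22500, 5690 and 19900 CPM in DHT replicates 1, 2 and 3, against 1550, 7770 and 7500 CPM in control replicates 1, 2 and 3. The organic anion transporter gene Slc22a6 was at 1180, 626 and 1170 CPM in DHT libraries and at 416 to 542 CPM in controls. Control replicate 1 was far below the other controls for Kap. For Kap DHT replicate 2 lay inside the control range, and for Slc22a6 nearer to it than to the other DHT libraries. Results that rest on this library are therefore given with and without it.

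Interferons are secreted when a cell senses foreign or misplaced nucleic acid. Type I interferons signal through a complex that holds STAT2 and IRF9 and binds the interferon-stimulated response element (ISRE), while interferon gamma acts mainly through the gamma-activated site (GAS). The induced genes include RNA-binding and RNA-degrading effectors, the ubiquitin-like modifier ISG15, RNA sensors and large GTPases. Most tissues, the kidney included, keep a low level of many of them without infection.

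The response elements are shown first because interferons act on genes through them, though not every member had a match. Promoter windows from 250 bases before to 50 after an annotated start were matched by symbol in RefSeq (GRCm38.p6) for 26 of the 36 members, in 30 windows. Those without an entry were Dhx58, Ifi27, Iigp1, Mx1, Mx2, Oas2, Parp9, Parp14, Rtp4 and Usp18. The ISRE core was searched on both strands as GAAA, 2 bases of any kind and GAAA again, so it also appears as a pair of TTTC. It was found for 16 of the 26 members (61.5%), against 1079 of 27025 genes (3.99%), and in 3.443% of all windows of this length. The GAS core TTCNNNGAA, which reads the same on both strands, was found for 8 of the 26 members (30.8%), against 9.55% of all genes. The matches overlap each other in Bst2, where the GAS match from -136 to -128 runs into the ISRE matches from -130 to -115. A match is a run of letters and was not tested for binding.

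The fragments below stand on the strand of the gene, with ISRE core matches in capitals, and positions are counted from the annotated start. Isg15 is shown for its 3 overlapping matches and Ifit1 for a spaced pair, which Ifit3 has too, Stat2, Ddx58 and Oas3 because their groups did not overlap in level, and Gbp3, Gbp7 and Rsad2 because each was called lower in DHT with 1 library left out. Ifi44, whose groups did not overlap either, had neither core in its window. Cmpk2, also called lower with 1 library left out, had neither core in its window.
Isg15, chr4:156200855-156200916, minus strand, matches from -78 to -57: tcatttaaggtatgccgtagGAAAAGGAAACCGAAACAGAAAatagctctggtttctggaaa
Ifit1, chr19:34640765-34640833, plus strand, matches from -104 to -76: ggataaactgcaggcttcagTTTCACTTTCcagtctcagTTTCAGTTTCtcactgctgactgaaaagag
Stat2, chr10:128270256-128270305, plus strand, match from -222 to -213: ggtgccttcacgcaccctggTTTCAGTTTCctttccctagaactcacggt
Ddx58, chr4:40239804-40239833, minus strand, match from 3 to 12: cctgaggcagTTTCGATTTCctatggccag
Oas3, chr5:120777705-120777754, minus strand, match from -75 to -66: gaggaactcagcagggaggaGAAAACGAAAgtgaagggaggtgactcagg
Gbp3, chr3:142559979-142560034, plus strand, matches from -45 to -30: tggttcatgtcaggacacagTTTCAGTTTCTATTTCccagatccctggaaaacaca
Gbp7, chr3:142530263-142530312, plus strand, match from -53 to -44: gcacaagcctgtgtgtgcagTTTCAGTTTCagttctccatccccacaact
Rsad2, chr12:26456543-26456592, minus strand, match from -120 to -111: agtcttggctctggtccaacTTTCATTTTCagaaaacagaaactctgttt
Irf1 had no ISRE core in its windows and 1 GAS core, from -90 to -82, shown here in capitals because Irf1 is a member well known for its response to interferon gamma.
Irf1, chr11:53769904-53769952, plus strand: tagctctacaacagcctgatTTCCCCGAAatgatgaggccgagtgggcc

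**Figure D1:**
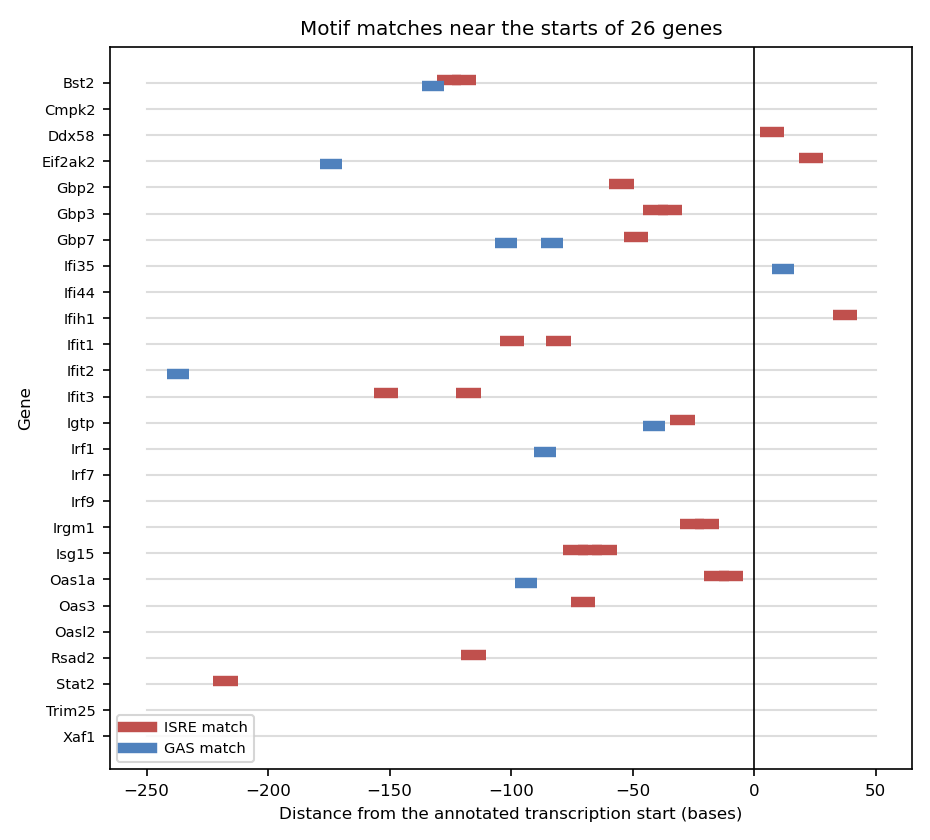
Positions of ISRE and GAS core matches (bars) in the promoter windows of 26 members, as distance in bases from the annotated start at 0; where a gene has several windows, each match is placed from its own start. Most ISRE matches lay between -156 and -5, with that of Stat2 farther out at -222, and those of Ddx58, Eif2ak2 and Ifih1 lay after the start.

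Set against the expression data, the 15 tested members with an ISRE match had a median log2 fold change of -0.33 (range -1.81 to 0.26) and the 10 tested members with a window but no match had a median of -0.24 (range -0.64 to 0.26).

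No interferon response gene was called in either direction. Of the 35 tested members, 0 were higher and 0 lower in DHT with edgeR's quasi-likelihood test at a Benjamini-Hochberg adjusted p of 0.05, where 1.38% of all tested genes were called higher and 1.46% lower, 2.84% in all. At an unadjusted p of 0.05, 5 members passed, all lower (Stat2, Gbp3, Ddx58, Ifi44 and Oas2), against 12.0% of all tested genes lower and 23.9% in either direction. DESeq2 called Gbp3 and Stat2 lower, with 5.18% of all genes called lower, and limma-voom called 0 members and 2.09% of all genes. Stat2 was also the 1 member called lower with no low-count filter (1.71% of all genes) and at an adjusted p of 0.1 (4.95% of all genes). In such bulk samples fewer cells of a type and less RNA per cell cannot be told apart. The fold changes leaned downward: 25 of 35 were below 0, against 49.7% of all tested genes, and their median was -0.22 log2, against 0.00 over all genes. With library sizes taken from total counts, which moved the median of all genes to -0.1, 32 were below 0. The DHT and control libraries did not overlap for 4 members, Stat2, Ddx58, Ifi44 and Oas3, all lower in DHT, which is 11.4% of the members. Of all tested genes 29.8% did not overlap, 14.8% higher and 15.0% lower. On total counts Ddx58 overlapped, leaving 3 members against 28.6% of all genes.

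**Figure D2:**
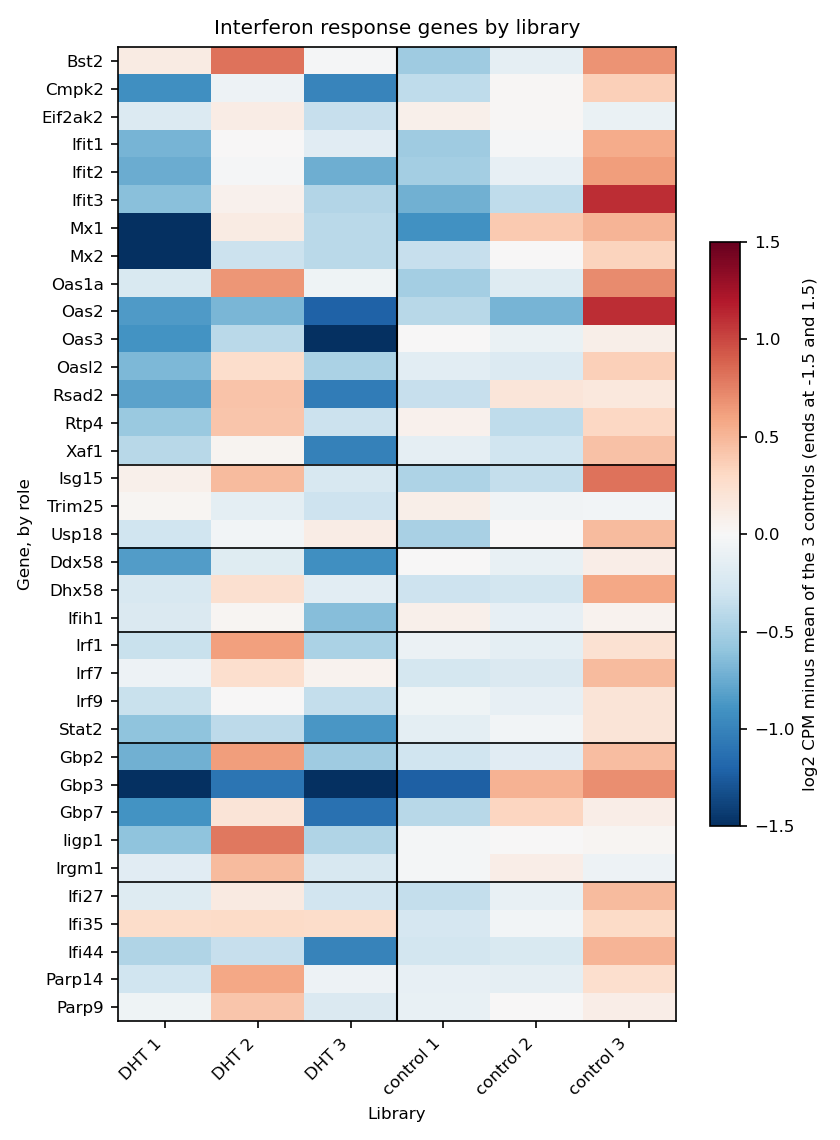
Level of each of the 35 tested members (rows, grouped by role from effectors at the top to other induced genes at the bottom) in each library (columns, DHT left of control), as log2 CPM minus the mean of the 3 controls. DHT replicates 1 and 3 are mostly blue (lower) and control replicate 3 mostly red (higher), with DHT replicate 2 nearer to the controls.

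The RNA sensors start the pathway. Ddx58, which encodes RIG-I, a sensor of viral RNA ends (chromosome 4, 40203773 to 40239828, GRCm38, minus strand), stood at 22.1, 34.9 and 20.8 CPM in DHT replicates 1, 2 and 3, against 39.5, 36.6 and 42.4 CPM in control replicates 1, 2 and 3, the order kept for all values below. The groups did not overlap, but DHT replicate 2 lay close under control replicate 2. The log2 fold change of Ddx58 was -0.61 ± 0.20 (SE), with an edgeR adjusted p of 0.114. Ifih1, which encodes the long double-stranded RNA sensor MDA5, was at 18.3, 21.8 and 13.7 CPM in DHT libraries and at 22.4, 19.6 and 22.1 CPM in controls. Its groups overlapped through DHT replicate 2, and its log2 fold change was -0.25 ± 0.18 (adjusted p = 0.42). Dhx58, which encodes the regulator LGP2, ranged from 2.07 to 2.88 CPM in DHT libraries and from 1.97 to 3.66 CPM in controls.

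Among the transcription factors, Stat2, the signal transducer that is specific to type I and type III interferons (chromosome 10, 128270559 to 128292849), came closest to the threshold of all members. It stood at 21.4, 24.9 and 17.8 CPM in DHT libraries and at 29.4, 31.7 and 37.3 CPM in controls. Every DHT library was below every control library, with means of 21.4 ± 3.56 and 32.8 ± 4.07 CPM (SD, n = 3 each). The log2 fold change was -0.62 ± 0.16 and the edgeR adjusted p 0.0681. It passed with DESeq2 (adjusted p = 0.022), with no low-count filter (0.0322) and without DHT replicate 2 (0.0326), and over the 6 ways of leaving out 1 library the edgeR adjusted p ran from 0.0326 to 0.191. Irf9, the DNA-binding partner of STAT2, was at 19, 24.2 and 18.7 CPM in DHT libraries and at 22.9, 22.1 and 27.4 CPM in controls, which overlap (log2 fold change -0.22 ± 0.15, adjusted p = 0.40).

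The other transcription factors had means that differed little between the groups. Irf7, which amplifies type I interferon production, averaged 16.5 ± 1.91 CPM in DHT libraries and 16.0 ± 4.92 CPM in controls. Irf1, an early factor induced by interferon gamma, averaged 20.5 ± 9.04 CPM in DHT libraries and 20.4 ± 2.92 CPM in controls. The wide DHT spread of Irf1 came from DHT replicate 2, at 30.9 CPM against 16.1 and 14.6 CPM in DHT replicates 1 and 3.

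The oligoadenylate synthetases make the second messenger that turns on RNase L. Oas2 (chromosome 5, 120730333 to 120749853) was at 3.58, 4.01 and 2.79 CPM in DHT libraries and at 4.86, 3.99 and 13.9 CPM in controls. The control mean rested on control replicate 3, and DHT replicate 2 lay above control replicate 2. Its log2 fold change was -1.14 ± 0.48 (edgeR adjusted p = 0.194), and -0.36 without control replicate 3. Oas3, a low gene with 6 to 14 counts in the DHT libraries and 19 to 25 in the control libraries, stood at 0.628, 0.877 and 0.356 CPM in DHT libraries and at 1.17, 1.09 and 1.24 CPM in controls. Its groups did not overlap (log2 fold change -0.91 ± 0.43, adjusted p = 0.242). Oasl2, an oligoadenylate synthetase-like gene, and Oas1a averaged 10.9 ± 3.96 and 4.75 ± 1.65 CPM in DHT libraries and 13.0 ± 2.94 and 4.50 ± 2.09 CPM in controls, and both overlapped. Oas1a reads are uncertain, since its transcript is 97.6% identical to Oas1g over 98.7% of its length.

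The IFIT proteins bind viral RNA and block its translation, and their 3 genes lie together on chromosome 19. Ifit2 was at 10.6, 17.6 and 10.7 CPM in DHT libraries and at 12.5, 16.3 and 27.5 CPM in controls. Ifit3 was at 14.4, 23.4 and 16.4 CPM in DHT libraries and at 13.5, 17.1 and 48.0 CPM in controls. For both genes control replicate 3 was the highest library and DHT replicate 2 the next, so the groups overlapped. The log2 fold changes of Ifit2 and Ifit3 were -0.54 ± 0.32 and -0.54 ± 0.50 (edgeR adjusted p = 0.347 and 0.552). Without control replicate 3, that of Ifit3 turned to 0.24. Ifit1 ranged from 5.15 to 8.39 CPM in DHT libraries and from 5.78 to 12.3 CPM in controls. The Ifit3 transcript is 97.8% identical to its neighbour Ifit3b over 97.4% of its length, so reads of the 2 cannot be told apart with certainty. Ifit3b itself averaged 6.00 ± 1.21 CPM in DHT libraries and 9.21 ± 4.62 CPM in controls, with 14.5 CPM in control replicate 3.

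Rsad2 and Cmpk2 are neighbours on chromosome 12, and their products act on nucleotides: Rsad2 encodes viperin, which makes a chain-terminating nucleotide, and Cmpk2 a mitochondrial nucleotide kinase. Cmpk2 (26469204 to 26479837) was at 12.8, 23.0 and 12.2 CPM in DHT libraries and at 18.7, 24.6 and 31.2 CPM in controls. Rsad2 (26442746 to 26456452) was at 24.1, 56.9 and 20.3 CPM in DHT libraries and at 33.3, 47.7 and 47.2 CPM in controls. In both genes DHT replicates 1 and 3 lay below every control library, while DHT replicate 2 was inside the controls for Cmpk2 and above them for Rsad2. The log2 fold changes were -0.64 ± 0.28 for Cmpk2 and -0.34 ± 0.39 for Rsad2 (edgeR adjusted p = 0.22 and 0.638). DHT replicate 2 was the highest DHT library for both. Without it both were called lower, at -1.0 (edgeR adjusted p = 0.0354) for Cmpk2 and -0.95 (adjusted p = 0.0249) for Rsad2.

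The Mx GTPases block viruses in the cell, but many laboratory mouse strains, C57BL/6 among them, carry defective Mx genes, and the GENCODE M21 annotation lists Mx2 as a polymorphic pseudogene. Mx1 had 8 to 26 counts in the DHT libraries and 13 to 43 in the control libraries, and Mx2 11 to 25 and 25 to 50. In CPM, Mx1 was at 0.503, 1.63 and 1.13 in DHT and at 0.799, 1.97 and 2.13 in control. Mx2 was at 0.691, 1.57 and 1.48 CPM in DHT libraries and at 1.54, 1.97 and 2.47 CPM in controls. Both overlapped between groups and neither passed (edgeR adjusted p = 0.524 and 0.345).

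The remaining effectors overlapped between groups as well. Xaf1, an interferon-induced promoter of cell death, was at 5.21, 7.14 and 3.44 CPM in DHT libraries and at 6.33, 5.65 and 9.45 CPM in controls (a log2 fold change of -0.44 ± 0.32, edgeR adjusted p = 0.429). Bst2, which encodes tetherin, a membrane protein that holds budding virus at the cell surface, was at 17.8, 28.9 and 16.2 CPM in DHT libraries and at 11.3, 14.9 and 26.2 CPM in controls. The single highest library was in each group the one that was high for most members, DHT replicate 2 and control replicate 3. Eif2ak2, the kinase PKR that halts translation, averaged 24.5 ± 3.97 CPM in DHT libraries and 26.9 ± 1.68 CPM in controls, and Rtp4, a receptor transporter protein, 6.40 ± 2.36 and 6.94 ± 1.62 CPM.

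**Figure D3:**
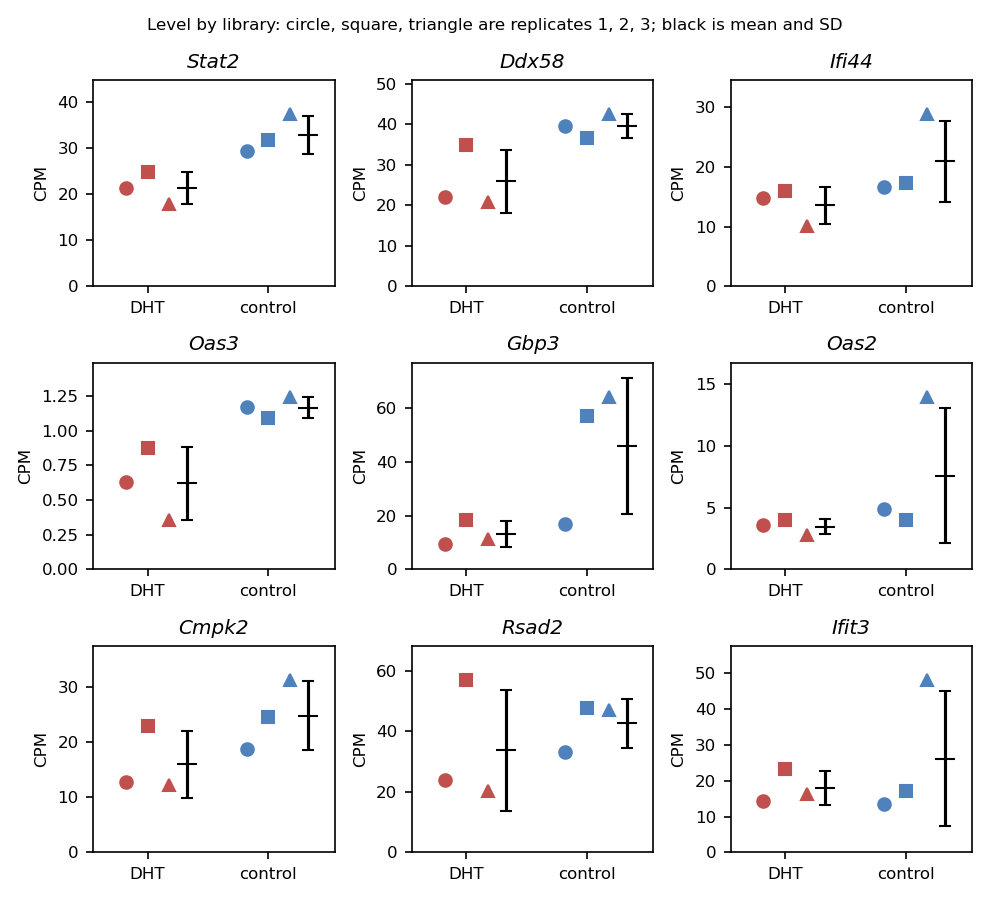
CPM of 9 members in every library (DHT left in red, control right in blue; circle, square and triangle are replicates 1, 2 and 3; black marks give mean and SD, n = 3). Stat2, Ddx58, Ifi44 and Oas3 do not overlap between groups; in Rsad2 and Cmpk2 DHT replicate 2 lies among or above the controls, and in Oas2 and Ifit3 control replicate 3 stands alone.

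ISG15 is attached to other proteins, USP18 removes it and blocks the interferon receptor, and TRIM25 is a ubiquitin ligase that assists RIG-I. Isg15 averaged 4.0 ± 1.0 CPM in DHT libraries and 3.98 ± 2.13 CPM in controls, a log2 fold change of 0.00 ± 0.40. Control replicate 3 held 6.43 CPM of Isg15 against 2.64 and 2.85 CPM in control replicates 1 and 2. Usp18 averaged 4.50 ± 0.638 CPM in DHT libraries and 4.89 ± 1.61 CPM in controls. Trim25 was steady, at 74.9, 66.7 and 59.5 CPM in DHT libraries and at 78.5, 70.9 and 71.8 CPM in controls, with the narrowest range of all tested members, 1.32-fold over the 6 libraries. Isg15 has a related annotated transcript (95.2% identity over 63.8% of its length), so a part of its reads is uncertain.

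The interferon-induced GTPases attack the vacuoles of intracellular microbes and answer above all to interferon gamma. Gbp3, a guanylate-binding protein (chromosome 3, 142560026 to 142573209), had the widest range of the tested members, 6.71-fold. It stood at 9.55, 18.5 and 11.3 CPM in DHT libraries and at 17.0, 57.0 and 64.1 CPM in controls. Control replicate 1 lay inside the DHT range, and control replicates 2 and 3 far above it. The log2 fold change of Gbp3 was -1.81 ± 0.53 and the edgeR adjusted p 0.113. Leaving out control replicate 1 gave -2.21 and an edgeR adjusted p of 0.0137, in a fit that called 1.60% of all genes lower and no other member. Control replicate 1 was the lowest control for Gbp3, so leaving it out lowers the fold change of Gbp3 by construction. DESeq2 on all libraries gave Gbp3 an adjusted p of 0.000717. Without control replicate 1, 8 members had non-overlapping groups, against 39.9% of all genes.

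Gbp7, the neighbour of Gbp3, was at 13.1, 27.9 and 11.3 CPM in DHT libraries and at 18.3, 30.6 and 26.2 CPM in controls (a log2 fold change of -0.52 ± 0.36, edgeR adjusted p = 0.414). DHT replicates 1 and 3 of Gbp7 were below every control, and DHT replicate 2 was not. Gbp2 averaged 13.0 ± 7.16 CPM in DHT libraries and 14.1 ± 4.25 CPM in controls. Iigp1 and Irgm1, immunity-related GTPases, averaged 16.5 ± 9.47 and 42.4 ± 12.4 CPM in DHT libraries and 15.9 ± 0.305 and 40.6 ± 2.57 CPM in controls. For Iigp1 the controls were within 15.6 to 16.2 CPM, while DHT replicate 2 held 27.4 CPM against 10.5 and 11.6 CPM in DHT replicates 1 and 3. Igtp, another immunity-related GTPase, had no more than 2 counts in a library, 4 over the DHT libraries and 3 over the controls. It shares 8.0% of its exonic bases with Irgm2 on the same strand, and the sources used here do not say how such reads were counted.

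Among the other induced genes, Ifi44, a cytoplasmic protein of poorly known function (chromosome 3, 151730922 to 151749960), was at 14.8, 15.9 and 10.1 CPM in DHT libraries and at 16.7, 17.3 and 28.8 CPM in controls. Its groups did not overlap, but DHT replicate 2 lay close under control replicate 1. The log2 fold change of Ifi44 was -0.62 ± 0.26 (edgeR adjusted p = 0.186), and -0.33 without control replicate 3. Ifi35, an interferon-induced protein that partners NMI, was nearly constant in DHT at 14.3, 14.4 and 14.3 CPM, and at 9.96, 11.5 and 14.5 CPM in controls. It was the member with the highest fold change next to Bst2, 0.26 ± 0.17 (adjusted p = 0.394), and 16.8% of its exonic bases are shared with Gm11626 on the opposite strand, whose reads may be mixed with its own. Ifi27, a small membrane protein, was at 35.6, 44.8 and 33.3 CPM in DHT libraries and at 31.7, 37.6 and 56.4 CPM in controls. Parp9 and Parp14, which modify proteins with ADP-ribose, averaged 23.0 ± 5.57 and 28.8 ± 9.54 CPM in DHT libraries and 21.9 ± 1.63 and 26.7 ± 4.21 CPM in controls.

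Per length, Ifi27 and Bst2 were the most abundant members. In CPM per 1000 exonic bases, Ifi27 was at 25.8 in DHT and 28.6 in control, Bst2 at 23.2 and 19.3, Ifit3 at 10.4 and 15, and Trim25 at 11.7 and 12.8. The lowest tested member on this scale was Oas3, at 0.0878 in DHT and 0.165 in control. These levels differ between genes by far more than any of them differed between the groups.

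**Figure D4:**
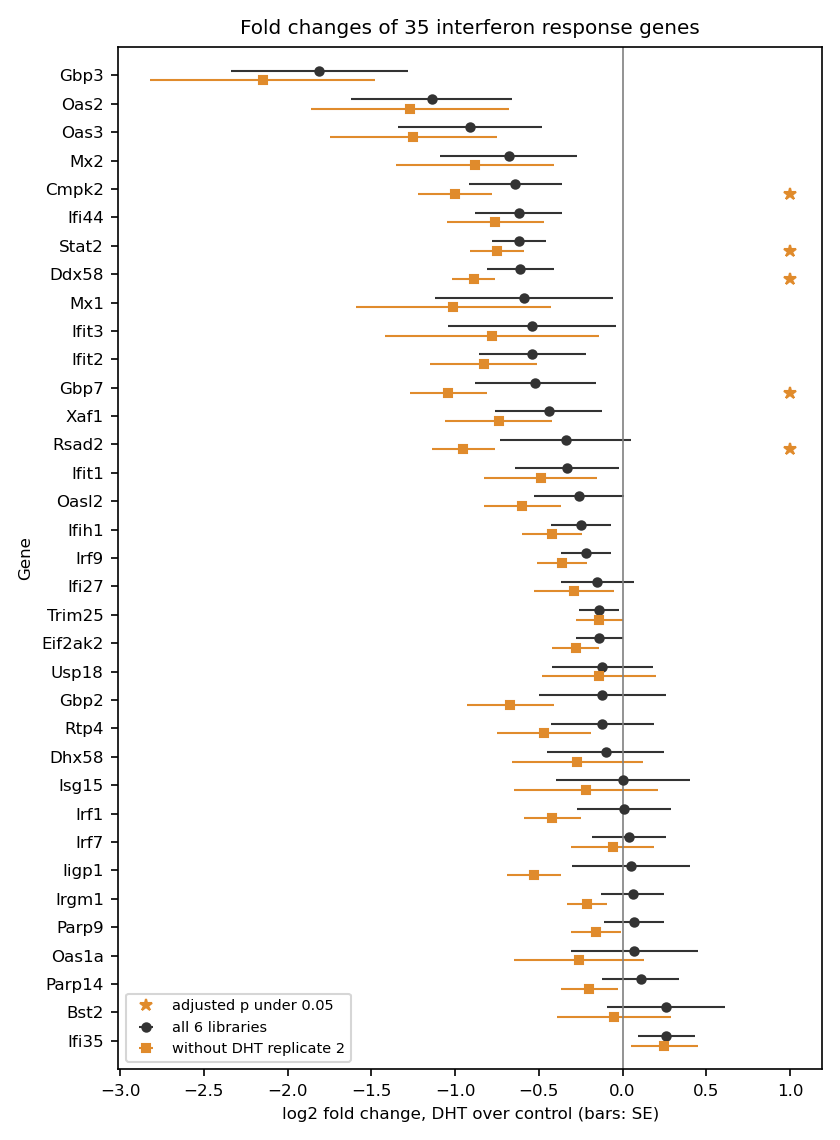
Log2 fold change, DHT over control, with SE bars for the 35 tested members, from all 6 libraries (black circles) and without DHT replicate 2 (orange squares); stars at the right mark an edgeR adjusted p under 0.05 without that library. All but Ifi35 lie below 0 without DHT replicate 2, and Cmpk2, Stat2, Ddx58, Gbp7 and Rsad2 carry a star. That library was the highest DHT library for 33 of the 35, so leaving it out lowers their DHT means by construction.

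Within each group 1 library was high for most members, and this spread exceeded the median difference between the groups: DHT replicate 2 lay a median of 0.68 log2 above the mean of the other DHT libraries, and control replicate 3 0.53 above the mean of the other controls. DHT replicate 2 was the highest of the 3 DHT libraries for 33 of 35 members, where it is the highest for 34.5% of all tested genes; the exceptions were Trim25 and Usp18. Control replicate 3 was the highest control for 29 of 35 members, against 36.5% of all tested genes. The members' median level, as log2 CPM minus the control mean, was -0.45, 0.10 and -0.39 across the DHT libraries, against -0.28, -0.11 and 0.35 across the controls. Thus DHT replicate 2 lay inside the controls and the other DHT libraries under all of them. Over the 6 libraries, the lowest value of a member was in DHT replicate 3 for 16, in DHT replicate 1 for 10 and in control replicate 1 for 9.

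By how much the high library stood out differed between members. DHT replicate 2 exceeded the mean of DHT replicates 1 and 3 by a median of 1.19 log2 over the 5 GTPases, most for Iigp1 (1.31) and Gbp2 (1.25), and by 1.35 for Rsad2 and 1.01 for Irf1. Control replicate 3 exceeded the mean of control replicates 1 and 2 by a median of 0.10 over the same GTPases, and by 1.65 for Oas2, 1.65 for Ifit3, 1.23 for Isg15 and 1.05 for Oas1a. Other members were high in both libraries, such as Gbp3 (0.82 and 0.79), Bst2 (0.77 and 1.0) and Ifit2 (0.72 and 0.93). These differences are between single libraries, have no replicate check and were not tested; over all tested genes with counts in every library the medians were -0.02 and 0.00.

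Without DHT replicate 2, 34 of 35 members were below 0, Ifi35 being the exception, and their median log2 fold change was -0.49. That library was the highest DHT library for 33 of 35, so leaving it out lowers their DHT means by construction. The calls that follow are therefore no independent support for a difference. Without DHT replicate 2, 5 members were called lower in DHT and 0 higher, in a fit that called 3.04% of all genes lower. They were Ddx58 at -0.89 ± 0.13, Rsad2 at -0.95 ± 0.19, Stat2 at -0.75 ± 0.16, Gbp7 at -1.04 ± 0.23 and Cmpk2 at -1.0 ± 0.22 (SE; edgeR adjusted p = 0.00907, 0.0249, 0.0326, 0.0343 and 0.0354). Of the 35, 20 had non-overlapping groups, all lower in DHT, where 23.0% of all genes were lower without overlap. Control replicate 3 was the highest control for 29 of 35 members, so leaving it out lowers their control means. Without it the median was -0.06, 19 members were below 0 and 0 were called, in an edgeR fit that called 0.571% of all genes. At an unadjusted p of 0.05, 5 passed, 3 of them lower, against 20.6% of all genes, and 9 members had non-overlapping groups, 5 higher and 4 lower, against 40.6% of all genes.

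By list medians, macrophage, lymphocyte and endothelial markers were highest in DHT replicate 2 and control replicate 3 of their groups, like the members. Red blood cell, neutrophil and dendritic cell markers were not. Their medians in control replicate 3 were -1.07, -1.49 and -0.02 log2, below those in control replicate 2 at 0.87, 0.33 and 0.23. Of 16 macrophage and monocyte markers 15 were tested, and together they stood at 153, 546 and 313 CPM across the DHT libraries, against 165, 217 and 301 CPM across the controls. Fold changes were above 0 for 14 of the 15, with a median of 0.74 log2, and edgeR called 0, against 2.84% of all genes. At an unadjusted p of 0.05, 3 were higher, against 23.9% of all genes in either direction. DHT replicate 2 was the highest library for this list too. Lyz2, or lysozyme, was at 117 CPM in DHT replicate 2 against 14.4 and 59.0 CPM in DHT replicates 1 and 3. Its control libraries ranged from 22.9 to 50.3 CPM. Csf1r was the 1 tested marker of this list with a fold change below 0 (-0.32 log2), and its highest library was control replicate 3. It stood at 33, 60.7 and 57.3 CPM in DHT libraries and at 26.4, 71.6 and 90.7 CPM in controls. By the summed level DHT replicate 3 was close to control replicate 3, at 313 against 301 CPM, and DHT replicate 1 was below every control. The median of the macrophage list was -0.22, 1.48 and 0.40 log2 in DHT and -0.27, -0.07 and 0.41 in control.

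Endothelial markers, 12 of 12 tested, summed to 663, 1130 and 667 CPM in DHT libraries and 679, 710 and 899 CPM in controls, an order in which DHT replicate 2 and control replicate 3 were the highest of their groups, as for the members. EdgeR called 1 of the 12, Ehd3, higher in DHT, against 1.38% of all tested genes. Of 16 lymphocyte markers 9 were tested, with sums of 9.11, 19.7 and 10.3 CPM in DHT libraries and 7.01, 11.8 and 13.8 CPM in controls, and Trbc2 had 0 counts in all 6 libraries. Of 10 dendritic cell markers, Bst2 among them, 7 were tested and summed to 58.4 to 102 CPM in DHT libraries and 77.8 to 84.4 CPM in controls. Siglech, which marks plasmacytoid dendritic cells, the main makers of type I interferon, had 27 counts in DHT and 29 in control. Of 8 neutrophil markers 3 were tested, with sums of 4.65 to 8.83 CPM in DHT libraries and 2.72 to 3.87 CPM in controls, and the 3 are too few to describe these cells. Of 8 red blood cell markers 6 were tested, with a median of -1.87, 1.61 and -1.68 log2 across the DHT libraries, against 0.09, 0.87 and -1.07 across the controls. Haemoglobin set DHT replicate 2 apart: Hbb-bs was at 1.7, 38.4 and 2.55 CPM in DHT libraries and at 12.1, 21.4 and 3.76 CPM in controls, and Hba-a1 at 0.817, 18 and 1.01 CPM and at 5.96, 8.51 and 3.17 CPM. The part of these cells in the levels of the members was not tested.

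**Figure D5:**
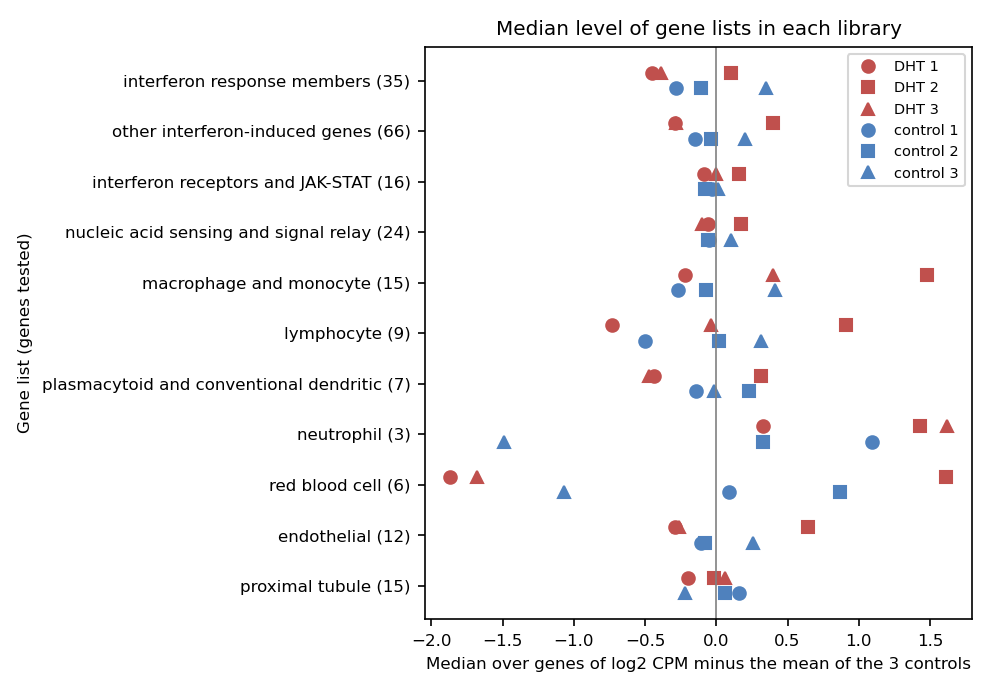
Median over the tested genes of each list (number in brackets) of log2 CPM minus the mean of the 3 controls, per library (DHT red, control blue; circle, square and triangle are replicates 1, 2 and 3). DHT replicate 2 is the highest DHT library in every list drawn but the neutrophil and proximal tubule markers, with medians of 1.61 for red blood cell and 1.48 for macrophage markers.

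Upstream of the members, the interferons themselves were hardly seen. Of 13 ligand genes, 11 had 0 counts in all 6 libraries, Ifnb1 and the alpha and lambda genes among them, which allows up to 0.0287 CPM for each over the 6 libraries together (3 counts, counting error only). Ifng had 2 counts in DHT and 3 in control, and Il27 2 and 4. At this depth no difference in ligand RNA could be detected.

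Receptors and the JAK-STAT relay were expressed in every library, and 0 of 16 tested genes were called by edgeR, DESeq2 or limma-voom, with a median log2 fold change of 0.04. Of all genes these methods called 2.84%, 10.8% and 2.09%. At an unadjusted p of 0.05 in edgeR, 2 passed, both lower, Tyk2 and Ifnlr1, against 23.9% of all tested genes in either direction. The receptor chains Ifnar1, Ifnar2, Ifngr1 and Ifngr2 had log2 fold changes of 0.07, 0.05, 0.09 and 0.21. Tyk2, the kinase bound to the type I receptor, was at 23.2, 22.5 and 22.8 CPM in DHT libraries and at 26.1, 29.8 and 31.0 CPM in controls, without overlap (-0.34 ± 0.12, edgeR adjusted p = 0.127). Ifnlr1, the receptor chain for interferon lambda, averaged 2.60 ± 0.836 CPM in DHT libraries and 4.61 ± 1.23 CPM in controls. Socs3, a feedback inhibitor of cytokine signals, was at 11.1 CPM in DHT replicate 2 and at most 2.67 CPM in every other library. Ptpn6, a phosphatase that ends such signals, averaged 34.3 ± 5.43 and 28.9 ± 2.08 CPM.

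Of 24 genes of nucleic acid sensing and its relay 0 were called by edgeR, DESeq2 or limma-voom, with a median log2 fold change of -0.03. The shares of all genes called were again 2.84%, 10.8% and 2.09%. At an unadjusted p of 0.05 in edgeR, 3 passed, Tlr3 and Traf3 lower and Dnase2a higher, also against 23.9%. Tlr3, an endosomal sensor of double-stranded RNA, was at 12.9, 17.9 and 11.3 CPM in DHT libraries and at 18.2, 20.9 and 20.8 CPM in controls, and Traf3, an adaptor of the relay, averaged 21.3 ± 2.15 CPM in DHT libraries and 26.4 ± 0.0753 CPM in controls. Neither overlapped, and neither passed (-0.51 ± 0.19 and -0.31 ± 0.12, edgeR adjusted p = 0.148 and 0.17). Dnase2a, a lysosomal DNase, and Mb21d1, the DNA sensor cGAS, lay the other way without overlap, with means of 16.2 ± 2.33 and 1.14 ± 0.338 CPM in DHT libraries and 11.9 ± 1.64 and 0.598 ± 0.157 CPM in controls. Neither passed (edgeR adjusted p = 0.167 and 0.244). Mb21d1 was low, with 13 to 23 counts in DHT libraries and 7 to 15 in controls. Its groups were barely apart, at 0.771 CPM in DHT replicate 3 and 0.742 CPM in control replicate 3.

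A further list of 68 interferon-induced genes that are not members had 66 tested, with a median of -0.11 and 36 genes below 0. EdgeR called 1 of the 66 higher and 0 lower, against 1.38% and 1.46% of all tested genes. The called gene was Parp10, a mono-ADP-ribosyltransferase, which stood at 39.6, 31.2 and 36.7 CPM in DHT, against 23.5, 22.7 and 24.8 CPM in controls (log2 fold change 0.60 ± 0.13, edgeR adjusted p = 0.0467). Its call was lost in 5 of the 6 ways of leaving out 1 library (edgeR adjusted p 0.0834 to 0.165), with limma-voom (0.0574) and on total counts (0.084), and kept without DHT replicate 2 (0.0196), while its log2 fold change stayed between 0.52 and 0.68 with 1 library left out. Next by p came Ifi30, a lysosomal thiol reductase, at 53.9 ± 5.35 CPM in DHT libraries and 36.1 ± 4.24 CPM in controls (adjusted p = 0.0546), Oas1b, a truncated oligoadenylate synthetase in most laboratory strains, at 1.11 ± 0.342 and 3.14 ± 0.897 CPM (adjusted p = 0.0645), and Trim34a, a TRIM family gene, at 8.18 ± 2.10 and 14.4 ± 1.05 CPM (adjusted p = 0.0682). These 4 genes had non-overlapping groups, Parp10 and Ifi30 higher and Oas1b and Trim34a lower in DHT, and 10 of the 66 did so in all, against 29.8% of all tested genes.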

How the data were processed

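The authors deposited raw counts per gene symbol for 6 kidney libraries. Per the submitters' processing notes, HISAT2 2.0 and mm10 were used; counting tool, annotation, strand setting and filters: not given in the sources used here. Columns were matched to samples by title. The tests used edgeR 4.0.16 (R 4.3.3) with filterByExpr by group (minimum count 10, minimum total 15), TMM scaling, robust quasi-likelihood dispersions, group as the single term, and Benjamini-Hochberg adjustment over all 15367 genes tested, at 0.05. SE values are those implied by the F statistic. CPM values use TMM-scaled sizes, and their SD is over 3 libraries. Log2 levels of libraries use a prior count of 2. The fit was checked on simulated counts, with 50 genes changed by each of several folds. It called 22% of them at 1.5-fold, 52% at 2-fold and 98% at 4-fold, with 18 false calls. A 1.5-fold change was thus missed more often than called. DESeq2 1.42.0 and voom of limma 3.58.1 were alternatives, with other scalings, filters and thresholds, a replicate block and each library left out. Pairs of libraries differed by more than sampling noise. Positions, lengths and near-identical transcripts (at least 95% identity over 50% of the transcript) come from GENCODE M21 on GRCm38. The members and lists were chosen with earlier results of these data known. Values in every library are given for the members with the smallest p, the highest level per length and the widest range, and up to 4 genes by p are named for each other list. Rsad2 and the non-members Ifit3b, Lyz2, Csf1r, Siglech, Kap, Slc22a6, Hbb-bs, Hba-a1 and the receptor chains were chosen after their values were seen.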

Additional observations from a re-analysis of the deposited data

How the results depend on the processing

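The count of members called higher in DHT was 0 under every alternative run. The count called lower, 0 in the fit reported, was 1 with no low-count filter and at an adjusted p of 0.1 (Stat2 in both), 2 with DESeq2 (Gbp3 and Stat2), and 0 to 5 when 1 library was left out: 5 without DHT replicate 2, 1 without control replicate 1 (Gbp3) and 0 otherwise. All genes called numbered 437, against 852 with no low-count filter, 1634 with DESeq2, 4 at an adjusted p of 0.01 and 1528 at 0.1, and 0 to 1224 with 1 library left out. The 0 was without DHT replicate 3 and the 1224 without DHT replicate 2; the count was 7 without control replicate 2, 19 without DHT replicate 1 and 89 without control replicate 3. The 4 members with non-overlapping groups became 4 to 20 with 1 library left out, with 20 when DHT replicate 2, 8 when control replicate 1 and 9 when control replicate 3 was left out, 5 of the last being higher. With fewer libraries groups overlap less often by construction, and the shares of all genes were 36.8% to 46.1%. The members' median log2 fold change of -0.22 lay between -0.32 and -0.19 with other scalings, filters and tests and between -0.49 and -0.06 with 1 library left out.

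With the replicate block, 85 genes and 0 members were called. The 3 correlations between the deviations of same-numbered libraries were 0.07, -0.15 and 0.04, so the block result was not read further; Parp10 was not called under it, and Iigp1 and Irf1 were at -0.08 and -0.06.

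Over the pathway lists, for which the alternatives were added after seeing the data, 1 gene was called higher, against 1.38% of all tested genes. The count was 0 with total counts, limma-voom, the replicate block or an adjusted p of 0.01, 2 with no low-count filter or DESeq2, 3 at an adjusted p of 0.1, and 0 to 1 with 1 library left out. Genes lower, 0 in the fit reported, were 2 with no low-count filter, DESeq2 or an adjusted p of 0.1, and 0 to 5 with 1 library left out, 5 without DHT replicate 2 and 1 without control replicate 1.

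Some members changed sign, most of them near 0 in the fit reported but Ifit3 at -0.54 and Bst2 at 0.26. With total counts the log2 fold change was -0.02 for Parp9 and Irgm1, -0.03 for Oas1a, -0.07 for Irf7 and Irf1, -0.01 for Iigp1 and -0.11 for Isg15. With limma-voom it was -0.10 for Iigp1 and -0.07 for Irf1. With other filters Isg15 was at 0.00 and -0.01. With 1 library left out the ranges were -0.86 to 0.24 for Ifit3, -0.05 to 0.67 for Bst2, -0.32 to 0.12 for Ifi27, -0.20 to 0.28 for Parp14, -0.33 to 0.14 for Usp18, -0.47 to 0.07 for Rtp4, -0.16 to 0.19 for Parp9, -0.21 to 0.19 for Irgm1, -0.67 to 0.15 for Gbp2, -0.27 to 0.25 for Dhx58, -0.26 to 0.51 for Oas1a, -0.10 to 0.31 for Irf7, -0.53 to 0.30 for Iigp1, -0.42 to 0.21 for Irf1 and -0.22 to 0.53 for Isg15. Where values moved with the setting, the cause was not tested. Depth limits Oas3, Mx1, Mx2 and the non-member Mb21d1, each with at most 50 counts in a library, and the ligand genes.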

Other observations

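Ifi44l, an interferon-induced gene related to Ifi44, was left out by the low-count filter. It had 2 counts in DHT (1, 0 and 1 in replicates 1, 2 and 3) and 37 in control (0, 15 and 22 in replicates 1, 2 and 3). As for Gbp3, control replicate 1 was the control library inside the DHT range. Without control replicate 1 Ifi44l passed the filter through control replicates 2 and 3, where it was high. EdgeR called it lower in DHT in that fit, which called 1.60% of all genes lower. That call rests on the library left out and is no evidence of a difference. It was singled out after its values were seen.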
